A study of Homo sapiens with 28 samples.

Results

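The 30 genes described here encode enzymes of cholesterol and fatty acid synthesis and the proteins that set their transcription. They were taken by symbol from a fixed list, and all 30 were found among the 19662 gene symbols of each of the 2 RNA-Seq tables. Of the 30, 8 act between acetyl-CoA and squalene (ACAT2, HMGCS1, MVK, PMVK, MVD, IDI1, FDPS and FDFT1), 10 between squalene and cholesterol (SQLE, LSS, CYP51A1, TM7SF2, MSMO1, NSDHL, HSD17B7, EBP, SC5D and DHCR7) and 8 in fatty acid synthesis (ACSS2, ACLY, ACACA, FASN, ELOVL6, SCD, FADS1 and FADS2). The remaining 4 control the SREBP transcription factors or carry sterol (INSIG1, SREBF1, SREBF2 and STARD4).

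Sterol regulatory element-binding proteins (SREBPs) are held in the endoplasmic reticulum membrane by SCAP and INSIG proteins while sterol is plentiful. When sterol falls, SCAP carries them to the Golgi, where they are cut, and the freed factor switches on most of the genes listed above. Cholesterol synthesis and fatty acid desaturation consume molecular oxygen, and INSIG2 is a known target of hypoxia-inducible factors. In the prostate, androgen signalling also drives lipid synthesis.

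The study measured polyadenylated RNA of cultured human prostate cancer cells to ask how the transcription factor ONECUT2 (OC2) acts in the response to low oxygen. PC3 cells, an androgen receptor-negative prostate cancer line, received a control siRNA (siCtrl) or 1 of 2 siRNAs against ONECUT2 (siOC2, siRNA1 or siRNA2). LNCaP cells, an androgen-responsive prostate cancer line, carried an empty vector (EV) or overexpressed Flag-tagged ONECUT2 (OC2). Each was kept in normoxia or in a hypoxia chamber at 0.2% O2, for a time the labels of these libraries do not give. This made 4 groups of 2 libraries in each line, 16 libraries in all. The siOC2 pairs hold 1 library of each siRNA, so the siRNA is part of their spread. The labels do not say that libraries came from separate cultures, and p-values measure the spread between libraries, which may be technical.

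The unit throughout is RPKM, in which reads are divided by transcript length and by the mapped reads of the library. The relative depth inferred from low RPKM values ran from 0.348 to 1.15 in PC3 and from 0.548 to 1.00 in LNCaP, taking the second normoxic control library of each line as 1. The siRNA1 library in hypoxia was the shallowest, and its median log2(RPKM + 0.1) was the lowest of the PC3 libraries for the 30 genes (4.04, against 4.32 to 4.58) and for all genes tested (2.69, against 2.89 to 3.20). Values without it are given beside the main results of the fits that use it. ONECUT2 (chromosome 18, 55102606 to 55158530, GRCh37) was at 1.77 and 1.16 RPKM in normoxic siCtrl, 0.276 and 0.204 with siRNA1 and siRNA2, 0.648 and 0.550 in hypoxic siCtrl, and 0.125 and 0.214 with siRNA1 and siRNA2 in hypoxia. Across both oxygen levels its fitted log2 change was −1.83 with siRNA1 and −1.74 with siRNA2. Without the siRNA1 hypoxia library the siRNA1 value was −1.83. ONECUT2 reached the 1 RPKM limit for testing only in the normoxic siCtrl libraries, the group where it is highest, so no p-value is given for it. In LNCaP it was at 2.89 and 7.86 in normoxic and 11.5 and 3.09 in hypoxic EV libraries, and is listed without a value in the 4 OC2 libraries, so the table does not check overexpression. All 6 luminal markers were at 1 RPKM or more in every LNCaP library (sum 2939 to 6130). In PC3 they summed to 2.44 to 7.68, with 3 of 6 below 1 RPKM in every library, KLK3 among them at 0. Another 1 of the 6 was at 1 RPKM or more in every PC3 library. PTPRC, which marks blood cells, was at 0 in LNCaP, and the other-cell-type markers summed to 2.03 to 4.74 RPKM in PC3 and 7.57 to 25.9 in LNCaP. In each line 2 of these 3 markers were below 1 RPKM in every library and 1 was at 1 RPKM or more in every library. A lower RPKM can come from fewer cells that use a gene or from less RNA per cell, and these cannot be told apart in bulk RNA.

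Promoter stretches of 4 members are printed because they hold the letters that SREBPs and their partners are known to use near sterol genes, and because these members return below. They come from RefSeq promoter sequences, which cover 250 bases before to 50 after each start (table build GRCh38.p14), and were placed on GRCh37 by exact match. Capitals mark CCAAT, the letters of NF-Y (read ATTGG on the other strand), TCACNCCAC, a form of the sterol regulatory element, ACGTG, the core letters of hypoxia-inducible factors, and ATCNAT, the core letters of ONECUT proteins, each searched on both strands.
SREBF2, chr22:42228949-42229028, plus strand: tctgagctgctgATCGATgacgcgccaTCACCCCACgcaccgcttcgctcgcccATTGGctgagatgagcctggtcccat
STARD4, chr5:110848329-110848408, minus strand: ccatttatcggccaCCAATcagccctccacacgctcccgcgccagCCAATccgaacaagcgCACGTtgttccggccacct
MSMO1, chr4:166248621-166248800, plus strand: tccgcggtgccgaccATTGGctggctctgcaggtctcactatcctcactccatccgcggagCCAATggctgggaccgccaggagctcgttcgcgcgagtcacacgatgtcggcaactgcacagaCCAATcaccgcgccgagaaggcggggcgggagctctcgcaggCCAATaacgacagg
EBP, chrX:48379991-48380175, plus strand: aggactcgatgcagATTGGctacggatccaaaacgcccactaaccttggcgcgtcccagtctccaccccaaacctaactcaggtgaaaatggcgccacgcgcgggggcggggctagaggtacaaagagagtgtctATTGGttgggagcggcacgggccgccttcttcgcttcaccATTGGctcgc

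Of the 30 genes, 26 were in the promoter table, and ACAT2, FDFT1, SQLE and FASN were not. CCAAT stood in the promoters of 21 of the 26, against 39.7% of the 27305 genes in the table. TCACNCCAC stood in 1 of 26, SREBF2, against 1.39% of genes. ACGTG stood in 8 of 26, against 24.9%, and its palindromic form CACGTG, which is counted within ACGTG, in 3 of 26 (INSIG1, LSS and SC5D), against 8.77%. ATCNAT stood in 2 of 26 (CYP51A1 and SREBF2), against 20.2%. A match describes letters in a window, and binding at these promoters was not examined here. The SREBF2 stretch also overlaps an exon of the noncoding gene SREBF2-AS1.

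The 30 genes together took 0.191% to 0.242% of summed RPKM in PC3 and 0.199% to 0.241% in LNCaP. By mean RPKM over 8 libraries, the highest in PC3 were FDPS (155.9), which makes farnesyl diphosphate, SQLE (91.2), the squalene epoxidase, and DHCR7 (67.6), the last reductase on the way to cholesterol. In LNCaP they were SREBF1 (244.0), which encodes the SREBP that chiefly drives fatty acid genes, FADS2 (209.6), a desaturase of polyunsaturated fatty acids, and SCD (202.5), the desaturase that makes oleate. The tables of the lines were made separately, so these levels are given side by side and were not tested against each other.

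In LNCaP cells with empty vector, low oxygen split the list. STARD4 and TM7SF2, a pair of sterol genes, moved by more than 2-fold in opposite directions, and 9 further members changed by less. A gene counted as called where it passed the study's limits, a change of more than 2-fold with an unadjusted P below 0.05, and was read separately at an adjusted p under 0.05 (limma with Benjamini-Hochberg adjustment over all genes tested). At the first limits 1 member was called higher and 1 lower, against 5.60% and 2.34% of 12283 genes. At the second, 5 members were higher, against 18.2% of genes, and 6 were lower, against 14.1%, so the share of members called was close to that of all genes. With each library scaled to its upper quartile, 2 were higher and 7 lower. The share of all genes passing under this scaling was not counted, here or in any later comparison. The members' median log2 fold change was −0.005, against 0.025 over all genes, with 15 above and 15 below 0.

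STARD4, a carrier of cholesterol between membranes, was at 11.6 and 8.85 RPKM in normoxic and 32.5 and 35.02 in hypoxic EV libraries. Both hypoxic libraries lay well above both normoxic ones, and the gene rose 3.31-fold (log2 1.73, SE 0.24, adjusted p = 0.0015, limma). TM7SF2, a sterol reductase of the late pathway, was at 42.8 and 65.8 RPKM in normoxia and 19.3 and 16.8 in hypoxia. Both hypoxic values were below the lower normoxic one, although the normoxic pair lay far apart, and TM7SF2 fell 2.94-fold (log2 −1.55, SE 0.21, adjusted p = 0.00135, limma).

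Among the fatty acid genes, SCD was at 176 and 175 RPKM in normoxia and 306 and 293 in hypoxia. The pairs were tight and did not overlap, and SCD rose by 0.77 on the log2 scale (adjusted p = 0.00106, limma). FASN, the fatty acid synthase, was at 94.0 and 134 in normoxia and 169 and 158 in hypoxia (log2 0.54, adjusted p = 0.0493, limma). FADS1, another desaturase, was at 83.7 and 81.0 and then 109 and 106 (log2 0.38, adjusted p = 0.0327, limma). SREBF1 was at 221 and 265 and then 339 and 302 (log2 0.40, adjusted p = 0.0425, limma). FASN, FADS1 and SREBF1 no longer passed when libraries were scaled to their upper quartile, while SCD and STARD4 did. ELOVL6, which lengthens fatty acids, moved the other way, from 34.1 and 37.9 to 25.03 and 20.6 RPKM (log2 −0.66, adjusted p = 0.00728, limma).

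The early sterol enzymes that passed were lower in hypoxia. PMVK, the phosphomevalonate kinase, went from 21.3 and 30.2 to 14.9 and 14.4 RPKM (log2 −0.79, adjusted p = 0.0121, limma). MVD, the next enzyme, which removes a carboxyl group, fell by 0.46 (adjusted p = 0.0461, limma), and IDI1, the isopentenyl diphosphate isomerase, fell by 0.30 (adjusted p = 0.0373, limma). CYP51A1, the lanosterol demethylase, fell by 0.46 (adjusted p = 0.00772, limma), from 59.3 and 57.8 to 41.4 and 43.8 RPKM. A pair of unnamed genes on its strand share 68.2% and 67.8% of its exon bases in a later GENCODE release than the authors used. Whether those genes were in the authors' annotation, and could take its reads, was not examined. In total 12 members were higher and 11 lower in both hypoxic libraries than in both normoxic ones, against 37.1% and 32.4% of all genes.

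ACLY, which cleaves citrate to acetyl-CoA, is listed at 0 in the first hypoxic EV library, beside 158 in the second and 88.3 to 144 in the other 6 LNCaP libraries. The change fitted with that value in place (log2 −4.72) rests on it. With the 0 taken as missing, ACLY was higher in hypoxia by 0.59 on the log2 scale (SE 0.12, adjusted p = 0.0102, limma), with 1 hypoxic EV library behind it, and the members' median became 0.028.

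**Figure D1:**
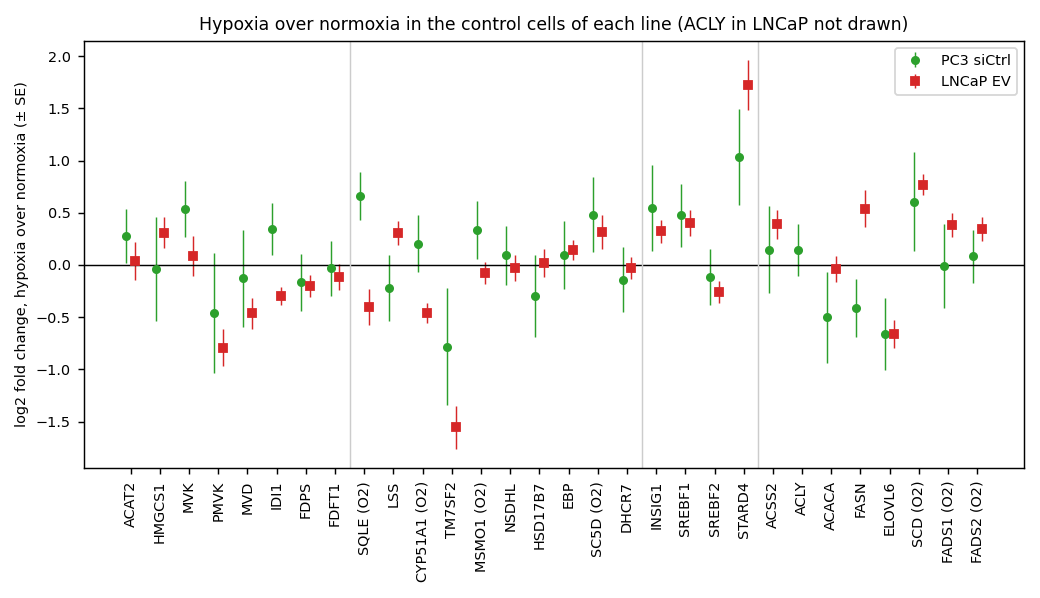
Log2 fold change of hypoxia over normoxia with its standard error for the 30 genes grouped by role, in PC3 siCtrl (circles) and LNCaP EV (squares), 2 libraries a group; (O2) marks the 7 oxygen-consuming enzymes, and ACLY in LNCaP is not drawn because 1 library lists it at 0. STARD4 lies highest in both lines (1.04 and 1.73) and TM7SF2 lowest (−0.78 and −1.55), and the PC3 error bars are wider.

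In PC3 siCtrl cells no member passed either test in low oxygen, with 1 member at an unadjusted P under 0.05, against 901 of 12214 genes. Over all 12214 genes tested, 2.23% were called higher and 1.63% lower at the study's limits, and 0.270% higher and 0 lower at an adjusted p under 0.05 (limma). The hypoxia treatment itself was visible, since 7 of 8 known HIF targets were called higher in these libraries, and 6 of 6 tested in LNCaP EV. The members' median was 0.087, against −0.066 over all genes, with 16 above and 14 below 0 and values from −0.78 to 1.04. In 11 members both hypoxic libraries were above both normoxic ones, against 22.1% of genes, and in 8 both were below, against 32.9%.

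SQLE, the first oxygen-using enzyme of sterol synthesis, was at 59.9 and 71.6 RPKM in normoxic and 111 and 96.7 in hypoxic siCtrl libraries. Both hypoxic values were higher, but the change did not pass (log2 0.66, SE 0.23, adjusted p = 0.536, limma). STARD4 went from 11.9 and 14.3 to 26.9 and 26.7 RPKM, also without overlap and without passing (log2 1.04, SE 0.46, adjusted p = 0.690, limma). TM7SF2 went from 8.05 and 7.32 to 3.78 and 5.16 RPKM (log2 −0.78, SE 0.56, adjusted p = 0.842, limma).

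The 7 oxygen-consuming enzymes are SQLE, CYP51A1, MSMO1, a methyl sterol oxidase, SC5D, which places a double bond in the sterol ring, and the desaturases SCD, FADS1 and FADS2. In PC3 siCtrl their median log2 fold change in hypoxia was 0.339, against −0.039 for the other 23 members, with 6 of 7 above 0. In LNCaP EV it was 0.319, against −0.028, with 4 of 7 above 0. The 3 below 0 there were the sterol enzymes SQLE, CYP51A1 and MSMO1. SQLE went from 30.5 and 24.4 to 18.0 and 23.6 RPKM, a pair of non-overlapping but close groups (log2 −0.40, adjusted p = 0.104, limma). MSMO1 went from 29.5 and 29.7 to 27.2 and 28.9 (log2 −0.08), and FADS2 from 198 and 223 to 264 and 269.9 (log2 0.35). The difference between the oxygen-consuming enzymes and the rest was not tested.

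Set side by side, INSIG1, SCD, SREBF1 and STARD4 were higher in both hypoxic than in both normoxic control libraries in PC3 and in LNCaP, and ELOVL6, FDPS, PMVK and TM7SF2 were lower in both lines. CYP51A1, IDI1, MSMO1 and SQLE were higher without overlap in PC3 and lower without overlap in LNCaP, and FASN the reverse. Some gaps were small, as for CYP51A1 in PC3 (nearest values 35.2 and 35.6 RPKM) and MSMO1 in LNCaP (29.5 and 28.9). Of all genes, 22.1% were higher and 32.9% lower without overlap in PC3 siCtrl, and 37.1% and 32.4% in LNCaP EV. The share of all genes with each pattern across both lines was not counted, and the differences between lines were not tested.

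INSIG1, which retains the SREBPs when sterol is plentiful, was at 8.48 and 9.80 RPKM in normoxic and 13.9 and 12.9 in hypoxic PC3 siCtrl, and at 38.1 and 39.2 and then 48.8 and 48.0 in LNCaP EV. Neither change passed (log2 0.55, adjusted p = 0.849, and log2 0.32, adjusted p = 0.0535, limma). SREBF2, which encodes the SREBP that chiefly drives sterol genes, went from 21.3 and 19.5 to 17.7 and 20.1 RPKM in PC3 siCtrl and from 36.4 and 34.9 to 28.9 and 30.8 in LNCaP EV. The LNCaP groups did not overlap, and the change missed the limit (log2 −0.25, adjusted p = 0.0963, limma), which it passed with upper-quartile scaling.

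A list of 28 further genes of SREBP processing, sterol uptake, efflux and storage and fatty acid metabolism was read beside them, of which 27 were tested in each line. In PC3 siCtrl 1 was called higher in hypoxia and none lower at the study's limits, against 2.23% and 1.63% of all genes. An unadjusted P under 0.05 was reached by 2, against 901 of 12214 genes. In LNCaP EV 3 were called higher and none lower, against 5.60% and 2.34% of all genes. At an adjusted p under 0.05 (limma) 6 were higher and 3 lower, against 18.2% and 14.1%. INSIG2, the partner of INSIG1, was called in both lines. It was at 2.77 and 4.45 RPKM in normoxic and 29.4 and 23.6 in hypoxic PC3 siCtrl (log2 2.87, adjusted p = 0.0357, limma), and at 8.71 and 8.10 and then 65.0 and 56.7 in LNCaP EV (log2 2.84, adjusted p = 8e-06, limma). The others called in LNCaP EV were ABCG1, a sterol exporter (log2 1.74), and ELOVL5, which lengthens polyunsaturated fatty acids (log2 1.13).

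With ONECUT2 overexpressed, no LNCaP member was called in hypoxia at the study's limits, where 5.48% of genes were called higher and 1.36% lower. At an adjusted p under 0.05 (limma) 4 members were higher in hypoxia, against 18.4% of genes, and 7 lower, against 8.49%. With upper-quartile scaling the split was 1 higher (INSIG1) and 9 lower, for which the share of all genes was not counted. Without that scaling the members' median was −0.075, against 0.092 over all genes. Those higher without it were FDFT1, the squalene synthase (log2 0.44), INSIG1 (0.48), STARD4 (0.79) and SCD (0.38). Those lower were PMVK (−0.79), MVD (−0.52), IDI1 (−0.65), CYP51A1 (−0.51), EBP (−0.33), DHCR7 (−0.36) and ELOVL6 (−0.80). In 9 members both hypoxic OC2 libraries were above both normoxic ones, against 42.0% of genes, and in 14 both were below, against 26.1%.

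STARD4 was at 8.10 and 13.4 RPKM in normoxic and 16.2 and 20.3 in hypoxic OC2 libraries. The hypoxic values were above the normoxic ones but below both hypoxic EV libraries. TM7SF2 was at 46.6 and 49.98 and then 38.7 and 29.5, above both hypoxic EV values. The difference between the responses with and without OC2, the interaction, was called for TM7SF2 alone at the study's limits (log2 1.04, SE 0.29), against 2.34% of genes higher and 1.35% lower, and did not pass after adjustment (adjusted p = 0.153, limma). For STARD4 it was −0.93 (SE 0.33, adjusted p = 0.228, limma). No member passed at an adjusted p under 0.05, where 0.106% of genes were higher and 0.138% lower. An unadjusted P under 0.05 was reached by 7 members, against 2072 of 12283 genes.

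The direct comparison of OC2 with EV in hypoxia placed most members lower with OC2. No member was called at the study's limits, where 3.70% of genes were higher and 0.773% lower. At an adjusted p under 0.05 (limma), 9 members were lower with OC2, against 4.82% of genes, and 2 were higher, against 6.72%. With upper-quartile scaling, 5 were lower and 2 higher, for which the share of all genes was not counted. The median was −0.199, against −0.013 over all genes, with 23 of 30 below 0, or −0.205 with the ACLY value of 0 taken as missing. In 17 members both OC2 libraries were below both EV libraries, against 34.8% of genes, and in 3 (MVD, FDFT1 and TM7SF2) both were above, against 31.6%. This comparison and the EV hypoxia response share the hypoxic EV libraries, so a gene high in those libraries is high in one and low in the other by construction.

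FASN was at 169 and 158 RPKM in hypoxic EV and 76.4 and 89.7 in hypoxic OC2 libraries, a gap wider than either pair (log2 −0.98, SE 0.18, adjusted p = 0.0135, limma). SCD was at 306 and 293 and then 181 and 197 (log2 −0.67, SE 0.10, adjusted p = 0.00579, limma). SREBF1 was at 339 and 302 and then 202 and 227 (log2 −0.57, adjusted p = 0.0265, limma). All 3 also passed with upper-quartile scaling. The others that fell were STARD4 (log2 −0.89), ACAT2, an acetyl-CoA thiolase (−0.77), LSS, the lanosterol synthase (−0.49), DHCR7 (−0.44), MSMO1 (−0.42) and EBP, the sterol isomerase (−0.42). With upper-quartile scaling, STARD4, DHCR7, MSMO1 and EBP no longer passed. TM7SF2 and FDFT1 were the members that rose (0.90 and 0.50). Each of the 7 oxygen-consuming enzymes lay below 0 (median −0.204), of which SCD and MSMO1 passed. The other 23 members had a close median of −0.194, with 16 below 0, and 7 of them passed as lower and 2 as higher.

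In normoxia no member passed either test for OC2 over EV, with 9 at an unadjusted P under 0.05, against 2966 of 12283 genes. Among all genes 2.81% were called higher and 0.480% lower at the study's limits, and 3.56% higher and 1.70% lower at an adjusted p under 0.05 (limma). The median was −0.137, against −0.076 over all genes. Both OC2 libraries were below both EV libraries in 13 members, against 31.5% of genes, and above in 3 (HMGCS1, IDI1 and ACSS2), against 17.9%. FASN was at 66.3 and 82.2 RPKM with OC2, below the EV values of 94.0 and 134, without passing (log2 −0.61, adjusted p = 0.0888, limma).

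**Figure D2:**
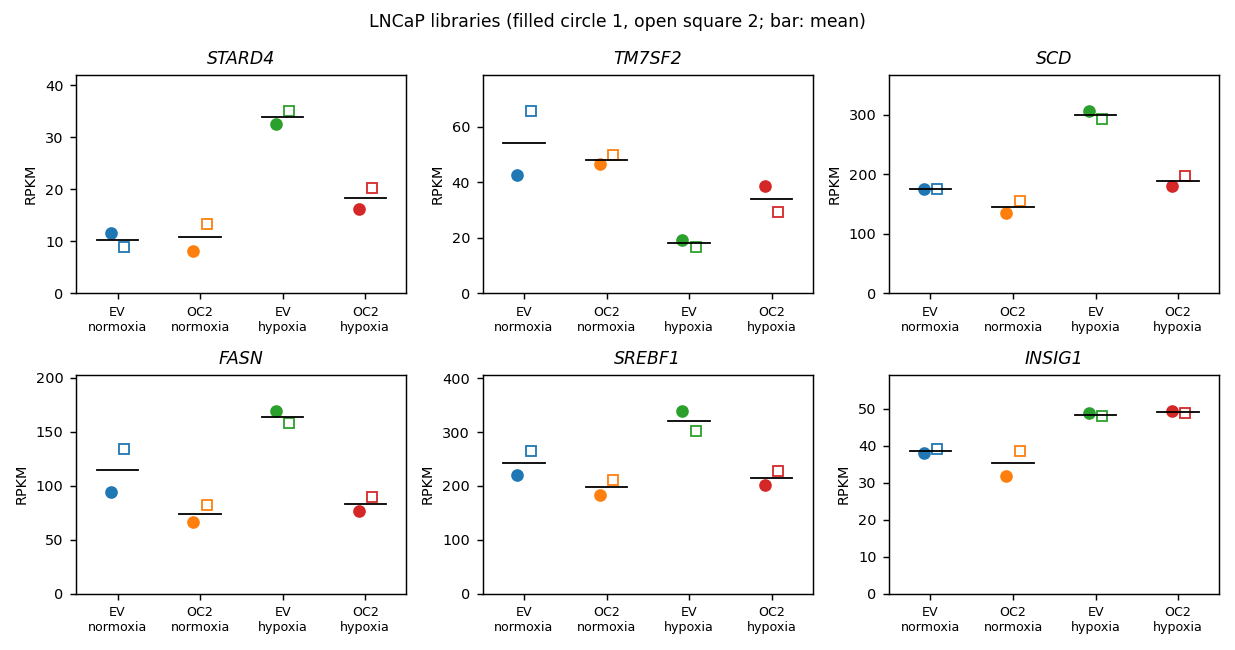
RPKM of STARD4, TM7SF2, SCD, FASN, SREBF1 and INSIG1 in the 8 LNCaP libraries, by group, with library 1 as a filled circle, library 2 as an open square and a bar at the mean; each vertical axis starts at 0. The hypoxic OC2 libraries lie below the hypoxic EV libraries for STARD4, SCD, FASN and SREBF1, above them for TM7SF2, and beside them for INSIG1.

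In PC3 cells with ONECUT2 silenced, 1 member was called lower at the study's limits at either oxygen level, FADS1, a desaturase that helps make arachidonate. FADS1 (chromosome 11, 61567099 to 61596790, minus strand, GRCh37) was at 74.4 and 81.8 RPKM in normoxic siCtrl, 32.1 with siRNA1 and 35.5 with siRNA2. In hypoxia it was at 77.1 and 77.6 in siCtrl, 15.1 with siRNA1 and 38.5 with siRNA2. The 4 siOC2 values all lay below the 4 siCtrl values. With the siOC2 pair taken as 1 group, FADS1 was called lower in normoxia (log2 −1.21, SE 0.40, adjusted p = 0.400, limma) and in hypoxia (log2 −1.68, SE 0.40, adjusted p = 0.154, limma). Without the siRNA1 library the hypoxia value was −1.003 (SE 0.236, adjusted p = 0.109, limma), and the gene was still called. FADS2, its neighbour on the other strand of chromosome 11, shares 490 exon bases with it (4.79% of FADS1) and ran from 17.8 to 23.6 RPKM over the 8 libraries.

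For the siOC2 pair over siCtrl in normoxia, no member was called higher and 1 was called lower, against 3.62% and 1.59% of genes. None passed an adjusted p under 0.05, against 0 and 0.00819% of genes (limma). An unadjusted P under 0.05 was reached by 2 members, against 1124 of 12214 genes. The median was 0.234, against 0.126 over all genes, with 25 of 30 members and 7484 of 12214 genes above 0. Both siOC2 libraries were above both siCtrl libraries in 15 members, against 31.4% of genes, and below in 2, ELOVL6 and FADS1, against 15.0%. All 8 genes from acetyl-CoA to squalene and all 10 from squalene to cholesterol had fold changes above 0, none of which passed.

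In hypoxia none was called higher and 1 lower, against 3.55% and 3.95% of genes. None passed an adjusted p under 0.05, against 0.0409% and 0.0491% (limma). An unadjusted P under 0.05 was reached by 3 members, against 1482 of 12214 genes. The median was −0.036, against −0.03 over all genes, and became 0.25 without the siRNA1 library, against 0.233. ACSS2 was then called higher (log2 1.07, adjusted p = 0.208, limma). With all libraries 11 members were above 0 and 19 below, and with upper-quartile scaling 17 and 13. Both siOC2 libraries were above both siCtrl libraries in LSS and FASN, against 18.8% of genes, and below in 7 members, against 19.6%.

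The siOC2 libraries in normoxia and hypoxia are matched by siRNA, and the deviations of libraries with the same siRNA correlated at 0.618 across genes, which are not independent replicates. The main values leave this matching out. The hypoxia response of the siOC2 pair had a median of −0.293, against −0.222 over all genes, and of −0.017, against 0.042, without the siRNA1 hypoxia library. No member was called without the matching, against 1.11% of genes higher and 2.35% lower, and none passed after adjustment, against 0.00819% and 0 (limma). An unadjusted P under 0.05 was reached by 1 member, against 820 of 12214 genes. With the library number as a block, MVD was called lower (log2 −1.003, SE 0.446, adjusted p = 0.655, limma), and likewise with a block for the siRNA in the siOC2 libraries only (SE 0.32, adjusted p = 0.122, limma). Both hypoxic libraries were above both normoxic ones in SQLE and SREBF1, against 7.34% of genes, and below in 11 members, against 20.9%. The interaction of silencing and hypoxia lay below 0 for 27 of 30 members (median −0.357), and for 8346 of 12214 genes (median −0.167). Without the siRNA1 hypoxia library the medians were −0.021 and 0.101.

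MVK, the mevalonate kinase, was the member with a called interaction, against 0.246% of genes higher and 0.696% lower. It was at 6.71 and 6.85 RPKM in normoxic and 8.74 and 11.2 in hypoxic siCtrl, and at 8.97 and 9.22 in normoxic and 6.48 and 5.90 in hypoxic siOC2 libraries. The siCtrl pair was higher in hypoxia and the siOC2 pair lower, without overlap in either (log2 −1.08, SE 0.38). It did not pass after adjustment (adjusted p = 1, limma), where no gene did, and it was not called under 5 of 17 alternatives, while it was called without the siRNA1 hypoxia library (−1.15).

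**Figure D3:**
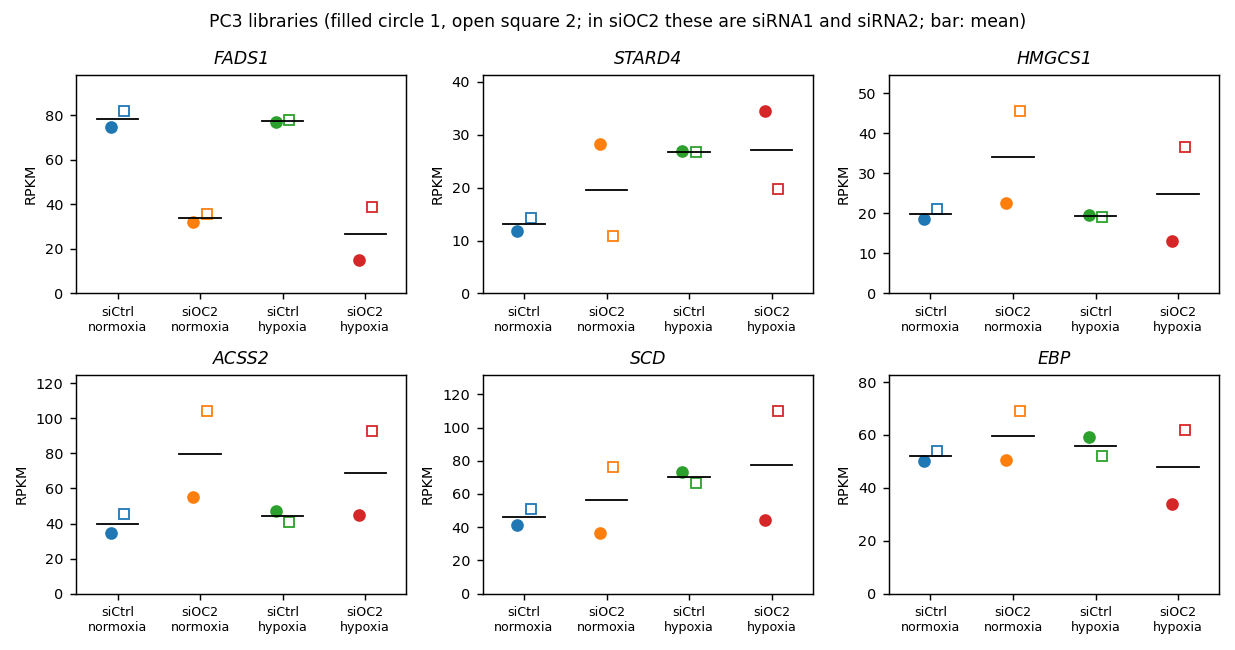
RPKM of FADS1, STARD4, HMGCS1, ACSS2, SCD and EBP in the 8 PC3 libraries, by group, with library 1 as a filled circle, library 2 as an open square and a bar at the mean; in the siOC2 groups the library number is the siRNA number, and each vertical axis starts at 0. FADS1 is low with both siRNAs, while the siRNA1 and siRNA2 libraries stand apart for STARD4, HMGCS1, ACSS2 and SCD.

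The siRNAs were also fitted apart, with 2 libraries each across both oxygen levels and oxygen as a term, against the same 4 siCtrl libraries. Their effects therefore share controls and are given side by side. With siRNA1, 1 member was called lower, FADS1 (log2 −1.82, SE 0.24, adjusted p = 0.000672, limma), against 8.48% of genes, and none higher, against 4.67%. At an adjusted p under 0.05 (limma) 1 was higher, against 8.38% of genes, and 2 lower, against 12.7%, and with upper-quartile scaling 3 were higher and 3 lower. The median was −0.048, against −0.072 over all genes, and 0.177, against 0.142, without the siRNA1 hypoxia library. FADS1 was then at −1.26 (adjusted p = 0.00252, limma).

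With siRNA2, 2 members were called higher, against 9.55% of genes, and 1 lower, against 4.11%. At an adjusted p under 0.05 (limma) 3 were higher, against 14.6%, and 2 lower, against 6.65%. The median was 0.276, against 0.196 over all genes. FADS1 was again the member called lower (log2 −1.07, SE 0.24, adjusted p = 0.00986, limma). Those called higher were HMGCS1, which makes HMG-CoA ahead of the rate-limiting reductase, and ACSS2, which turns acetate into acetyl-CoA.

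HMGCS1 was at 18.7 and 21.2 RPKM in normoxic siCtrl, 22.7 with siRNA1 and 45.6 with siRNA2, and in hypoxia at 19.6 and 19.2, 13.0 and 36.7. Both siRNA2 libraries stood above the other 6 (log2 1.05, SE 0.21, adjusted p = 0.00481 for siRNA2, limma). A gene on the opposite strand covers 37.7% of its exon bases, and whether counting used strand is not given in the sources used here. ACSS2 was at 34.6 and 45.4, 54.9 and 104 in normoxia and at 47.0 and 41.1, 45.0 and 92.5 in hypoxia, in the same order (log2 1.23, SE 0.19, adjusted p = 0.00134 for siRNA2, limma). SCD was at 41.4 and 50.9, 36.8 and 76.1 and then 73.5 and 66.8, 44.6 and 109.8, above siCtrl with siRNA2 (log2 0.69, adjusted p = 0.0187, limma) and below it with siRNA1 (−0.49, adjusted p = 0.0723, limma).

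STARD4 went the other way. It was at 11.9 and 14.3 RPKM in normoxic siCtrl, 28.3 with siRNA1 and 10.9 with siRNA2, and at 26.9 and 26.7, 34.5 and 19.8 in hypoxia. It rose with siRNA1 (log2 0.74, SE 0.21, adjusted p = 0.0289, limma), and with siRNA2 both values lay below siCtrl without passing (−0.35, adjusted p = 0.262, limma). INSIG1 was at 8.48 and 9.80, 13.6 and 5.70 in normoxia and at 13.9 and 12.9, 9.93 and 7.06 in hypoxia, and fell with siRNA2 (log2 −0.79, adjusted p = 0.0377, limma). ELOVL6 lay below both siCtrl libraries with each siRNA at each oxygen level, and passed with siRNA1 (−0.91, adjusted p = 0.0278, limma) and not with siRNA2 (−0.73, adjusted p = 0.0620, limma). Without the siRNA1 hypoxia library, ELOVL6 no longer passed with siRNA1 (−0.665, adjusted p = 0.174, limma), and STARD4 did (1.09, adjusted p = 0.00792, limma).

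The difference between siRNA1 and siRNA2 was itself fitted. It was called higher with siRNA1 for 1 member, STARD4 (log2 1.09, SE 0.24, adjusted p = 0.00937, limma), against 4.24% of genes. It was called lower for 4, against 15.1%, namely HMGCS1 (−1.24), PMVK (−1.28), TM7SF2 (−1.21) and SCD (−1.17). At an adjusted p under 0.05 (limma) 2 members were higher and 6 lower, against 6.22% and 17.6% of genes, and with upper-quartile scaling 2 were higher and 9 lower, which adds EBP, FADS1 and FDPS. Those past the adjusted limit and not called were INSIG1 (0.86), ACSS2 (−0.98) and HSD17B7, a keto-sterol reductase (−0.76). The median was −0.269, against −0.264 over all genes, and −0.045, against −0.048, without the siRNA1 hypoxia library. Without that library SCD and STARD4 were still called (−1.02 and 1.43), while HMGCS1 (−0.91), PMVK (−0.68) and TM7SF2 (−0.69) were not. At the adjusted limit HMGCS1 (adjusted p = 0.0181) and ACSS2 (−0.816, adjusted p = 0.0400) still passed, INSIG1 was at 1.32 (adjusted p = 0.00518), and HSD17B7 (−0.495, adjusted p = 0.192), PMVK (adjusted p = 0.103) and TM7SF2 (adjusted p = 0.134, limma) did not pass.

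Library by library, 19 members were above and 4 below both siCtrl values with siRNA1 in normoxia, against 49.9% and 32.5% of all genes. With siRNA1 in hypoxia 4 were above and 24 below, against 26.6% and 57.3%. With siRNA2, 21 were above and 6 below in normoxia, against 51.1% and 31.2%, and 19 above and 8 below in hypoxia, against 56.3% and 26.4%. At both oxygen levels siRNA1 lay above in 3 members (LSS, STARD4 and ACLY), against 21.2% of genes, and below in 4 (TM7SF2, ELOVL6, SCD and FADS1), against 27.1%. The counts for siRNA2 were 17 above, against 42.5%, and 5 below (INSIG1, SREBF1, STARD4, ELOVL6 and FADS1), against 19.8%. The 17 held HMGCS1, PMVK, MVD, IDI1, FDPS and FDFT1 of the early pathway and 8 of the 10 genes from squalene to cholesterol, among them NSDHL, a sterol dehydrogenase.

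**Figure D4:**
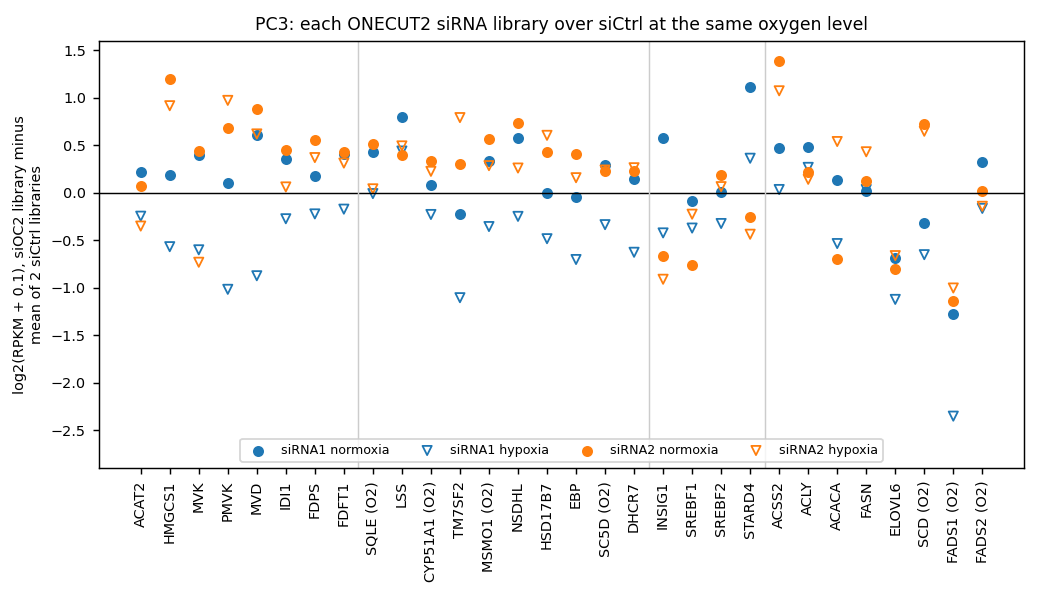
Log2 RPKM of each siOC2 library minus the mean of the 2 siCtrl libraries at the same oxygen level, for the 30 genes by role, with siRNA1 in blue, siRNA2 in orange, normoxia as filled circles and hypoxia as open triangles, and (O2) marking oxygen-consuming enzymes. All 4 points of FADS1 lie between −2.35 and −1.003, and most siRNA1 points in hypoxia lie below 0 (median −0.346).

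EBP (chromosome X, 48380187 to 48387104, plus strand, GRCh37) is listed as a near match in sequence of siRNA1, a match that was not examined here. It was at 50.1 and 53.9 RPKM in normoxic siCtrl, 50.5 with siRNA1 and 68.9 with siRNA2, and at 59.3 and 52.0, 34.1 and 62.0 in hypoxia. The siRNA1 value lay between the siCtrl values in normoxia and below both in hypoxia, where it was 0.614 of their mean. Ranked from the lowest siRNA1 ratio among the 30 members, EBP was number 6 in normoxia and number 6 in hypoxia. With siRNA2 it was above both siCtrl values at each oxygen level. Without scaling beyond RPKM none of its siRNA fits in PC3 passed. They were at log2 −0.37 (SE 0.19, adjusted p = 0.190) for siRNA1, 0.28 (adjusted p = 0.315) for siRNA2 and −0.66 (SE 0.22, adjusted p = 0.0512) for siRNA1 over siRNA2 (limma). With upper-quartile scaling siRNA1 over siRNA2 passed (−0.588, SE 0.151, adjusted p = 0.0196, limma), and without the siRNA1 hypoxia library it did not (−0.366, SE 0.207, adjusted p = 0.256, limma). Without that library the siRNA1 value was −0.084 (adjusted p = 0.807, limma). An unnamed gene on the same strand shares 36.4% of its exon bases in a later GENCODE release than the authors used. Whether that gene was in the authors' annotation was not examined.

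Of the 30 genes, 8 passed neither test in any comparison with all values in place: ACACA, the acetyl-CoA carboxylase, ACLY, FADS2, FDPS, NSDHL, SC5D, SQLE and SREBF2. ACACA ran from 3.94 to 9.64 RPKM over the PC3 libraries and from 56.7 to 75.3 over the LNCaP libraries. NSDHL ran from 8.60 to 16.02 and from 13.3 to 15.8, the narrowest LNCaP range of the 30 genes in fold terms. SC5D ran from 20.1 to 46.4 and from 62.4 to 95.8, and in PC3 its lowest value was 1 of the 2 normoxic siCtrl libraries.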

How the data were processed

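RNA was purified with RNeasy columns, made into TruSeq Stranded mRNA libraries and sequenced on a HiSeq2500. Per the labels and the study's methods, the authors used STAR 2.4.2a to align reads to hg19 and deposited RPKM values per gene from Cufflinks 2.1.1 with a GENCODE annotation. Read counts were not used here; sequencing depth was read only as a ratio between libraries, from the steps of low RPKM values, and intervals that need counts are not given. The series also holds 12 ChIP-Seq samples, not used here. Groups came from the labels.

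Fold changes are on the log2(RPKM + 0.1) scale, which understates changes of low genes. In each line, genes that reached 1 RPKM in 2 or more of 8 libraries were tested with limma 3.58.1 (R 4.3.3, empirical Bayes with a trend, 4 groups, no block). The siRNAs were fitted with siRNA and oxygen as additive terms. Each exact 0 stayed in the fit unless stated. A gene was called at a fold over 2 and unadjusted P under 0.05, and the Benjamini-Hochberg adjustment ran over every gene tested. All 30 members are accounted for, with values for those called, the oxygen-consuming enzymes, the SREBP control genes and EBP. The members and gene lists were chosen with earlier results of these data known. The code was tested on simulated data. Alternatives were another pseudocount, other limits on low values, upper-quartile scaling, no trend, a replicate block, fits to fewer groups, an siRNA fit with oxygen interaction and each library left out; after the data were seen, a 0 taken as missing, a crossed block and a block by siRNA in the siOC2 libraries only were added. Promoters came from RefSeq (GRCh38.p14), gene positions and exon overlaps from a later GENCODE release on GRCh37 than the authors' annotation. Tables and plots used Python 3.11.15, pandas 2.3.3 and matplotlib 3.10.9.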

Additional observations from a re-analysis of the deposited data

Results flagged for a closer look

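Of the members, 2 differed between conditions in their hypoxia response at an unadjusted P under 0.05 and a fold over 2. They were MVK in PC3 (siOC2 minus siCtrl response, log2 −1.08) and TM7SF2 in LNCaP (OC2 minus EV response, 1.04), and neither passed after adjustment. Another 5 differed between siRNA1 and siRNA2 in PC3 by the same limits, namely HMGCS1 (−1.24), PMVK (−1.28), TM7SF2 (−1.21), STARD4 (1.09) and SCD (−1.17). A further 5 moved without overlap in one direction in PC3 siCtrl and in the other in LNCaP EV under hypoxia, a difference that was not tested. The share of all genes that did so was not counted. PC3 minus LNCaP, the log2 responses differed by 0.64 for IDI1, 1.06 for SQLE, 0.67 for CYP51A1, 0.42 for MSMO1 and −0.95 for FASN.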

How the results depend on the processing

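The median log2 fold change of the 30 genes moved by more than the pooled spread within groups (SD 0.183 in PC3 and 0.128 in LNCaP) under 10 of 208 alternatives, each of which left out a PC3 library. The PC3 spread includes the siOC2 pairs, which differ in siRNA (member medians 4.04 and 4.54 in hypoxia). The siCtrl pairs lay closer (4.32 and 4.35 in normoxia, 4.58 and 4.53 in hypoxia), so this limit is wide for PC3. Without 1 library at a time the median fold change ran from −0.507 to −0.017 for the siOC2 hypoxia response, −0.346 to 0.25 for siOC2 over siCtrl in hypoxia, −0.592 to −0.021 for the PC3 interaction, −0.323 to 0.177 for siRNA1 and −0.547 to −0.045 for siRNA1 over siRNA2. The number of members called ran, again without 1 library at a time, from 0 to 1 for the siCtrl hypoxia response, 0 to 6 for that of siOC2, 0 to 2 for siOC2 over siCtrl in normoxia, 1 to 4 in hypoxia, 0 to 6 for the PC3 interaction, 1 to 4 for siRNA1, 2 to 3 for siRNA2 and 3 to 8 for siRNA1 over siRNA2. In LNCaP it ran from 2 to 3 for the EV and 0 to 1 for the OC2 hypoxia response, 0 to 0 for OC2 over EV in normoxia, 0 to 4 in hypoxia and 0 to 2 for the interaction. The share of all genes called without each library was not counted, so these ranges are not read as a result about the members. At an adjusted p under 0.05 (limma) in place of the study's limits the number was 0 for siOC2 over siCtrl in normoxia and in hypoxia and for both interactions, 3 for siRNA1, 5 for siRNA2, 8 for siRNA1 over siRNA2, and 11 for each of the EV hypoxia response, the OC2 hypoxia response and OC2 over EV in hypoxia. With upper-quartile scaling the adjusted count for siRNA2 became 7 higher and 4 lower. Pseudocount 1 and upper-quartile scaling each left 0 members in the PC3 interaction.

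The replicate numbers pair the siOC2 libraries in normoxia and hypoxia by siRNA (correlation of same-numbered deviations 0.618). For the other pairs of groups the labels name nothing shared, and it ran from −0.186 to 0.0759 in PC3 and −0.0648 to 0.275 in LNCaP. With the replicate number as a block, 1 member was called in the siCtrl and 1 in the siOC2 hypoxia response (also 1 with a block by siRNA in the siOC2 libraries only), and 1 in the siCtrl response with the siCtrl numbers crossed. A fit to only the siCtrl groups also called 1. The share of all genes called under these fits was not counted. STARD4 and TM7SF2 in the EV hypoxia response were called under 16 of 16 alternatives (1.53 to 1.92 and −1.86 to −1.25), and FADS1 under 15 of 15 with siRNA1 (−2.37 to −1.26). FADS1 was called under 14 of 15 with siRNA2 (−0.82 without the normoxic siRNA2 library). HMGCS1 with siRNA2 was at 0.97 without the first normoxic siCtrl library, and STARD4 in siRNA1 over siRNA2 at 0.74 without the normoxic siRNA1 library. The TM7SF2 interaction was called under 11 of 15. Upper-quartile scaling moved the median of all genes from −0.076 to 0.036 for OC2 over EV in normoxia (members −0.137 to −0.024) and from 0.092 to −0.018 for the OC2 hypoxia response (members −0.075 to −0.185). The causes of these changes were not tested. Shallow libraries and 2 libraries a group limit the precision, more so in PC3, where the siOC2 pairs mix siRNAs.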

Other observations

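Among the pathway neighbours, TMEM97, a sterol-responsive membrane protein, was singled out after its values were seen. It was at 84.8 and 94.98 RPKM in normoxic siCtrl, 30.8 with siRNA1 and 78.8 with siRNA2, and at 68.7 and 64.9, 19.6 and 74.9 in hypoxia. Both siRNA1 libraries lay below the other 6, and the change passed with siRNA1 (log2 −1.65, adjusted p = 0.00023, limma) and against siRNA2 (−1.64, adjusted p = 0.000435, limma). Without the shallow siRNA1 hypoxia library these were −1.48 (adjusted p = 0.00165) and −1.47 (adjusted p = 0.00153, limma).

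ABCG1, the sterol exporter, was also named after its values were seen. It was at 5.47 and 6.44 RPKM in normoxic EV libraries of LNCaP, 23.1 and 16.2 in normoxic OC2, 21.7 and 18.4 in hypoxic EV and 22.4 and 23.2 in hypoxic OC2 libraries. Only the normoxic EV pair was low, and ABCG1 was higher with OC2 in normoxia (log2 1.69, adjusted p = 0.0021, limma). In PC3 it was at 0.307 and 0.462 RPKM in normoxic siCtrl, 1.27 with siRNA1 and 1.17 with siRNA2. Across both oxygen levels its fitted log2 change was 1.97 with siRNA1 and 1.43 with siRNA2. In normoxia only the siOC2 libraries, where it is higher, reached the 1 RPKM limit for testing. No p-value is therefore given for it in PC3. These normoxic values are low, and the hypoxic values in the fit are not printed here. Without the siRNA1 hypoxia library the siRNA1 value was 1.53.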
